A study of Mus musculus with 4 samples.

Results

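The cytosolic ribosomal protein genes were followed in RNA-seq of sorted mouse bone marrow cells that the labels name ltHSC, long-term hematopoietic stem cells (LT-HSCs). By contrast, the paper describes its RNA-seq as run on sorted HSPCs, hematopoietic stem and progenitor cells. Values below are therefore not shown to be those of LT-HSCs alone, and the part that came from progenitors was not tested. Members were protein-coding genes of GENCODE M21 whose symbol is Rpl, Rps, Rplp or Rpsa with its number, without the S6 kinase genes and the named pseudogenes. The rule found 86 of 55401 gene models, and it used no measured value. Of the 86 members, 77 encode core proteins, 31 of the small and 46 of the large ribosomal subunit. The other 9 are 6 paralogs (Rpl3l, Rpl10l, Rpl22l1, Rpl36al, Rpl39l and Rps27l), the retrogene Rps27rt, and Rpl7l1 and Rps19bp1, which are not ribosomal proteins by their known roles. Fau and Rack1 encode core proteins too, but their symbols lie outside the rule.

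KO mice carried floxed Cpt1a alleles and Vav1-Cre, a Cre recombinase under a promoter active across the blood system, so the deletion is not limited to stem cells. Control mice carried the floxed alleles without the Cre, and both groups were adult mice on a C57BL/6 background. Cpt1a encodes the enzyme that passes long-chain fatty acids on for entry into mitochondria. There were 2 KO and 2 Control libraries, and the labels do not say whether each came from 1 animal or from a pool. The paper's legend for Nnt expression from RNA-seq gives a higher n per group, and only these libraries were used here.

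Each cytosolic ribosome carries 1 copy of nearly every ribosomal protein, held on ribosomal RNA in a small subunit that reads the mRNA and a large subunit that joins amino acids. Ribosomal protein mRNAs begin with a C followed by a stretch of pyrimidines, the TOP motif, through which mTORC1 and Larp1 control their translation as a group. Blood formation is sensitive to the supply of these proteins. In humans, loss of 1 copy of RPS19, RPL5, RPL11 or several others causes Diamond-Blackfan anaemia, and loss of 1 copy of RPS14 contributes to the anaemia of the 5q- syndrome. Stem cells of the blood make protein at a low rate compared with their progeny.

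The letters around the annotated start sites show what the genes share beyond their names. RefSeq promoters (GRCm38.p6) were matched to 66 of the 86 members by symbol. Below are 30 bases around the start of 10 of them, 15 on each side, with the longest run of C or T that reaches within 10 bases of the start in capitals and, where runs tie, the one farther upstream (Rps27rt has a second run of 6 letters at its start). The first 5 were chosen for clear runs at the start, and the last 5 because they are paralogs or partners of paralogs.
Rplp2, chr7:141447636-141447665, plus strand: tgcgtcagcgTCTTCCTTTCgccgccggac
Rpl15, chr14:18270972-18271001, minus strand: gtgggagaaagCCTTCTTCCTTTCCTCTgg
Rpl27a, chr7:109519180-109519209, plus strand: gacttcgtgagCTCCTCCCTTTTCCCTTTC
Rpl35, chr2:39005117-39005146, minus strand: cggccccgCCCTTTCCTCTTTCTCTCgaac
Rps10, chr17:27635230-27635259, minus strand: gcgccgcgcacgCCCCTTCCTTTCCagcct
Rps27, chr3:90213634-90213663, minus strand: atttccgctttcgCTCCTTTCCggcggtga
Rps27rt, chr9:114982725-114982754, minus strand: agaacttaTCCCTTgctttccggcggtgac
Rpl39, chrX:37085208-37085237, minus strand: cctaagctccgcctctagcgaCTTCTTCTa
Rpl39l, chr16:10170213-10170242, plus strand: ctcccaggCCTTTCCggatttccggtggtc
Rpl10l, chr12:66284387-66284416, minus strand: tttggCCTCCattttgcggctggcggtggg

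A run of at least 8 letters that are all C or T, read on the transcribed strand, lay there in 29 of the 66 members, 43.9%, against 15.8% of 27025 genes with a promoter. It lay there in 27 of 57 core members (47.4%) and in 2 of the 9 others. The median longest run was 7 letters in members, against 4 in all genes. These are matches of letters at annotated starts, and where an annotated start lies a few bases from the one in use the run shifts within the window.

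Depth and the identity of the cells bear on every value below. KO libraries held 34083159 and 33909781 expected counts, and Control libraries 20589218 and 23291747, which limits the precision of Control more. Cpt1a stood at 11.5 and 19.2 TPM in KO and at 37.0 and 35.6 TPM in Control, TPM being a level corrected for length and scaled to the same sum in each library. None of 12 LT-HSC markers was at 0 in every library, but some were low. Hoxb5 had 0.18 and 0 TPM in KO and 0.65 and 1.12 TPM in Control. Slamf1 had 4.83 and 2.88 TPM in KO and 4.44 and 4.41 TPM in Control. The 12 summed to 637 and 658 TPM in KO and 598 and 673 TPM in Control. Of these sums Kit gave 262 and 275 TPM in KO and 253 and 232 TPM in Control. The median log2 fold change of the 12 markers was -0.21, with 3 values positive and 9 negative. In edgeR 0 passed, 2 were lower at unadjusted p under 0.05 (Mecom, -0.78, and Tie1, -0.53), DESeq2 called these 2 lower, and edgeR without Control replicate 1 called Mecom lower. Of the other markers, 6 of 12 erythroid genes passed lower in KO in edgeR (summed 317 and 423 TPM in KO, 1059 and 973 TPM in Control). Of 10 B lineage genes 9 passed higher (summed 647 and 443 TPM in KO, 62.2 and 95.5 TPM in Control), and of 8 mast cell genes 4 passed higher (490 and 557 TPM in KO, 180 and 144 TPM in Control). Of 10 neutrophil genes 1 passed lower (6254 and 6446 TPM in KO, 11677 and 8038 TPM in Control). None of the genes in these 5 lists was at 0 in every library. Of 8 T and NK genes 2 were at 0 in every library and 3 were tested. Of these 3, 1 passed higher (Tcf7) and 0 lower, with 1 value positive and 2 negative. The 8 summed to 167 and 160 TPM in KO and 202 and 213 TPM in Control. Over all genes edgeR placed 0.451% higher and 0.212% lower. At unadjusted p under 0.05 it placed 5.81% and 4.61%, and DESeq2 called 3.96% and 3.24%. Immediate early genes summed to 499 and 408 TPM in KO and to 645 and 7125 TPM in Control, so Control replicate 2 stood apart. The part of these differences in the ribosomal protein values was not tested. In such bulk libraries, fewer cells of a type and less RNA per cell cannot be told apart.

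The ribosomal protein genes together held close to the same share of the messenger pool in both genotypes. Their TPM summed to 24.4% and 24.8% of the total in KO libraries and to 24.3% and 24.99% in Control libraries. The 2 genotypes overlapped, and replicates of a genotype lay further apart than the genotype means, 24.6% in KO and 24.7% in Control. The large subunit took 13.2% and 13.5% in KO, against 13.2% and 13.4% in Control. The small subunit took 10.9% and 11.1% in KO, against 10.8% and 11.3% in Control. As a share of expected counts, in which long genes weigh more, the members took 7.88% and 8.10% in KO and 8.17% and 8.28% in Control. On that scale both KO libraries lay below both Control libraries, by a difference between means of 7.99% and 8.22%. With 2 libraries a group, an exact permutation test cannot pass 0.05, so no test is given for these shares.

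**Figure D1:**
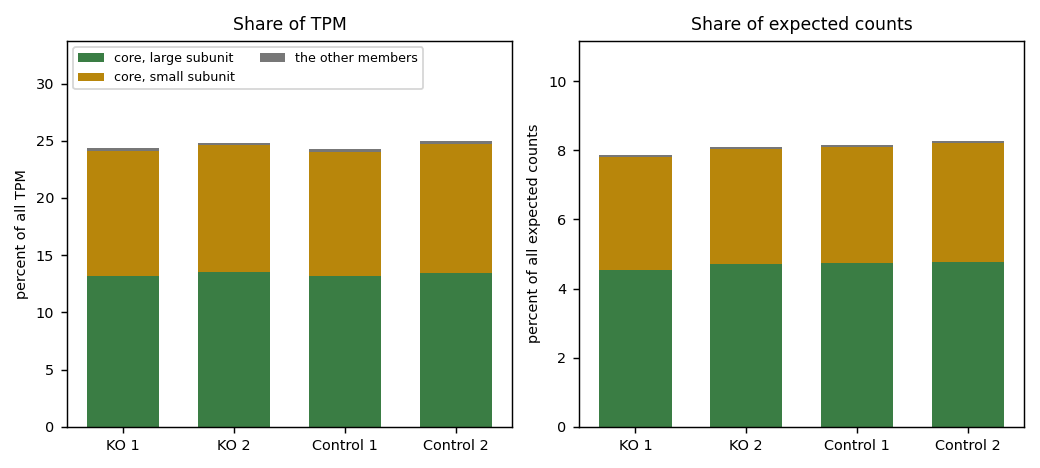
Share of all TPM (left) and of all expected counts (right) held by the ribosomal protein genes in each library, as percent, with core large subunit, core small subunit and other members stacked. The 4 bars lie between 24.3% and 24.99% for TPM and between 7.88% and 8.28% for counts, where both KO bars are the lower.

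Gene by gene, no ribosomal protein mRNA passed the test for a difference between genotypes. Of the 83 members with enough counts, edgeR's quasi-likelihood test placed 0 higher in KO and 0 lower at an adjusted p below 0.05. Over all 14635 genes it placed 0.663% in either direction, made up of 0.451% higher and 0.212% lower. At an unadjusted p under 0.05, 0 members were higher and 5 lower, 5.81% and 4.61% of all genes being higher and lower. Without Control replicate 1, which leaves 1 Control library, edgeR called 0 members higher and 1 lower (Rps14), with 1.09% and 0.893% of all genes. DESeq2 called 0 members higher and 3 lower (Rpl29, Rps14 and Rps19) among the 3.96% and 3.24% of genes that it called in each direction. limma on log2(TPM + 1) called 0 and 0. The 3 members that could not be tested were Rpl3l, Rpl10l and Rpl39l.

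The fold changes of the family lay in a narrow band. Their median was -0.04 on the log2 scale, with 29 values positive and 54 negative, against a median of 0.01 for all genes tested. The middle 50% of the core members lay between -0.10 and 0.03, that of all genes between -0.24 and 0.27. The median was -0.004 without KO replicate 1, -0.012 without Control replicate 2 and -0.049 without Control replicate 1. It stayed negative whichever library was left out, and the full range is given in the closing section. From TPM, limma put 47 members above 0 and 36 below, with a median of 0.004. The sign of the family median thus depended on the scale.

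The 95% intervals give, gene by gene, a range for the count-based fold change in these libraries. The 95% interval of the fold change lay inside 1.5-fold in either direction for all 77 core members, and inside 1.25-fold for 64 of them. Among the 707 genes at least as abundant by CPM, counts scaled to the library's total, as the lowest core member, which include the core members, 93.1% lay inside 1.5-fold and 47.8% inside 1.25-fold. For all genes these shares were 28.05% and 4.67%. The bounds farthest from 0 over the core members were -0.49 and 0.40. The median SE was 0.08 in core members and 0.27 in all genes.

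**Figure D2:**
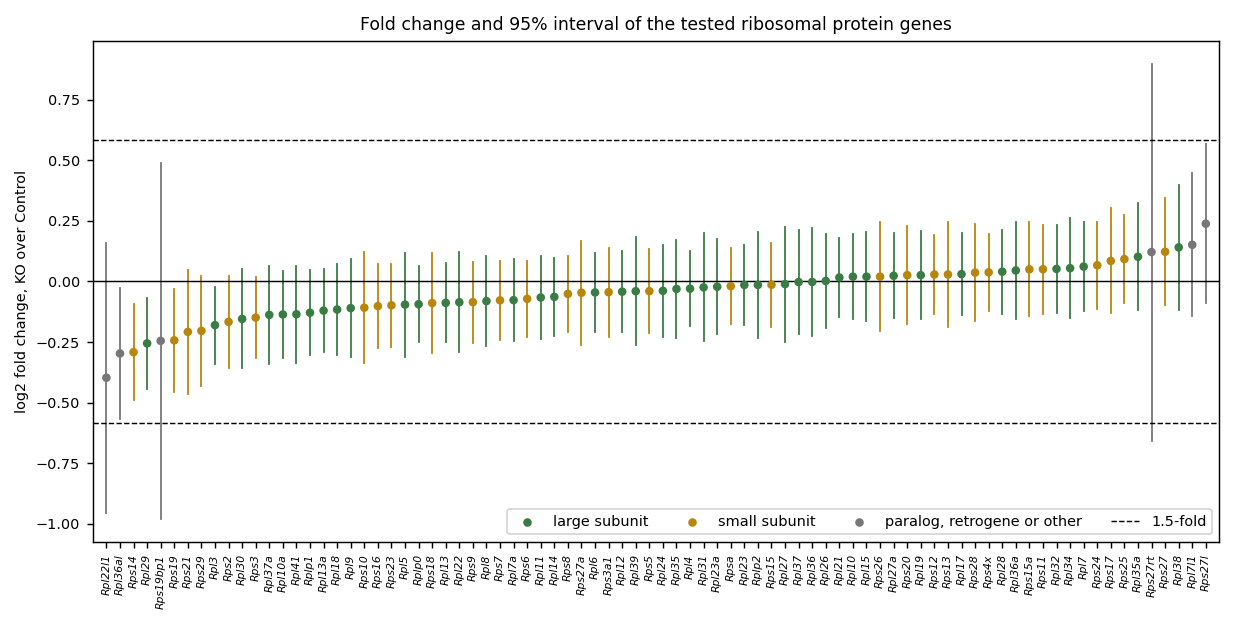
Log2 fold change, KO over Control, of 82 of the 83 tested ribosomal protein genes with 95% intervals from edgeR, ordered by fold change, with dashed lines at 1.5-fold. The intervals of all core members drawn lie between the dashed lines. Those of 3 other members (Rpl22l1, Rps19bp1 and Rps27rt) reach past a dashed line, that of Rps27rt past both.

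Between 2 single libraries, the median absolute difference in log2 TPM over the core members was 0.05 for the KO replicates and 0.07 for the Control replicates. For a KO library against a Control library it was 0.06 to 0.09 over the 4 pairs. By comparison, the same replicate differences over all genes tested, on log2(TPM + 1), were 0.27 in KO and 0.34 in Control. In TPM, both KO libraries lay above both Control libraries for 23 of 83 members and below them for 19, and 41 overlapped, the background being 23.1% above and 16.8% below. In CPM the counts were 13 above and 29 below, the background being 22.7% and 19.3%.

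Among themselves the core mRNAs differed far more than between genotypes. Mean TPM over the 4 libraries ran from 1021 for Rpl37 to 6720 for Rpl23a, a 6.58-fold range. Rpl23a, a protein at the exit of the tunnel through which the new chain leaves, had 6353 and 7196 TPM in KO and 6719 and 6611 TPM in Control. Rps24, a Diamond-Blackfan gene, had 6200 and 6658 TPM in KO and 5380 and 6200 TPM in Control. Rps27 had 6076 and 6742 TPM in KO and 5451 and 5804 TPM in Control, so that both KO libraries were the higher. Rps15, which binds late in the making of the small subunit, had 5746 and 5944 TPM in KO and 5762 and 5655 TPM in Control. The log2 fold changes of these 4 abundant members lay between -0.02 for Rpl23a and 0.12 for Rps27, and the interval of each held 0. At the low end Rpl37 had 1093 and 952 TPM in KO and 1021 and 1017 TPM in Control, and here the KO replicates lay on either side of the Control pair.

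**Figure D3:**
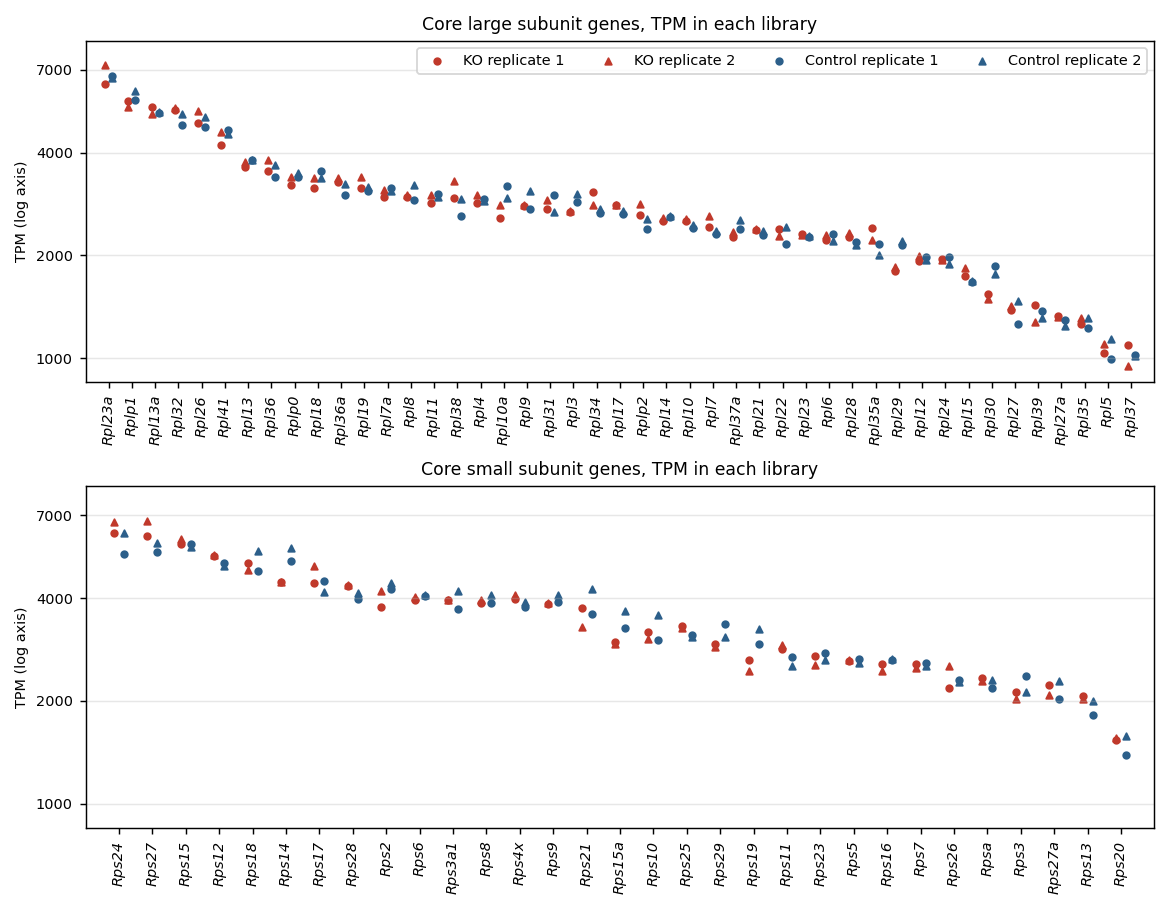
TPM (log axis) of 45 of the 46 core large subunit genes (top) and the 31 core small subunit genes (bottom) in each library, ordered by mean level, KO in red left of Control in blue, replicates by symbol. Levels run from 1021 TPM (Rpl37) to 6720 TPM (Rpl23a) on average, and for most genes the 4 points nearly coincide.

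The 5 members with an unadjusted p under 0.05 were all lower in KO. Rps14, the 5q- gene, had 4462 and 4468 TPM in KO libraries and 5147 and 5591 TPM in Control libraries. The KO pair was tight and lay below both Control values. Its log2 fold change was -0.29 (SE 0.09), with edgeR adjusted p = 0.303. DESeq2 gave adjusted p = 0.00532, and the adjusted p ran to 0.936 over the 15 alternatives. Without Control replicate 1, edgeR gave -0.38 with adjusted p = 0.0481, in a fit whose Control arm is 1 library assumed to vary like the KO libraries.

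Rpl29, a large subunit protein also known for binding heparan sulfate, lies at chr9:106429454-106431568 (GRCm38). It had 1797 and 1847 TPM in KO and 2150 and 2200 TPM in Control, again without overlap. The log2 fold change was -0.26 (SE 0.08, edgeR adjusted p = 0.349), and over the alternatives the adjusted p ran from 0.00178 in DESeq2 to 0.99998.

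Rps19, whose human counterpart is the gene most often mutated in Diamond-Blackfan anaemia, had 2635 and 2440 TPM in KO and 2935 and 3242 TPM in Control. The log2 fold change was -0.24 (SE 0.09, edgeR adjusted p = 0.431). DESeq2 called it (adjusted p = 0.0447), and the adjusted p reached 0.99998 over the alternatives. Without Control replicate 2 the fold change was -0.14, and without Control replicate 1 it was -0.33. Rps14 moved likewise between -0.19 and -0.38 when 1 Control library was left out.

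Rpl3, which reaches toward the peptidyl transferase centre, had 2683 and 2689 TPM in KO and 2869 and 3030 TPM in Control. Its log2 fold change was -0.18 (SE 0.07, edgeR adjusted p = 0.432). Rpl36al is described with the paralogs below. At the other end, the 4 members with the smallest p among positive values were Rps27l (0.24), Rps27 (0.12), Rpl38 (0.14) and Rpl7l1 (0.15), with edgeR adjusted p from 0.617 to 0.774. Rpl38, needed in the mouse for the translation of some Hox mRNAs, had 2952 and 3302 TPM in KO and 2607 and 2924 TPM in Control.

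The 21 Diamond-Blackfan and 5q- genes as a list gave 0 called higher and 0 lower in edgeR, with a median log2 fold change of -0.02. At unadjusted p under 0.05 they gave 0 and 2 (Rps14 and Rps19), beside 5.81% and 4.61% of all genes. DESeq2 gave 0 and 2, beside 3.96% and 3.24% of all genes, and limma gave 0 and 0. Rpl5 and Rpl11, which join 5S ribosomal RNA in a complex that inhibits Mdm2, did not differ beyond their intervals. Rpl11 had 2843 and 2999 TPM in KO and 3024 and 2967 TPM in Control, with a log2 fold change of -0.07 (95% interval -0.24 to 0.10). Rpl5 had 1039 and 1103 TPM in KO and 995 and 1139 TPM in Control, with a log2 fold change of -0.10 (95% interval -0.31 to 0.12).

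The P stalk is the flexible arm of the large subunit that recruits translation factors, built from Rplp0, Rplp1 and Rplp2. Rplp0 had 3224 and 3398 TPM in KO and 3403 and 3474 TPM in Control. Rplp1 had 5645 and 5448 TPM in KO and 5694 and 6037 TPM in Control. Rplp2 had 2623 and 2824 TPM in KO and 2383 and 2550 TPM in Control. The first 2 were lower in both KO libraries and Rplp2 was higher, yet the count-based log2 fold changes were -0.09, -0.13 and -0.01, and none passed. Rpsa, a small subunit protein also known as the laminin receptor, overlapped between genotypes, with 2335 and 2286 TPM in KO and 2177 and 2297 TPM in Control.

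Rplp2 differed between the scales. RSEM's effective length, the number of positions a read can start from averaged over isoforms, divides the counts in TPM. For Rplp2 it was 322 and 324 bases in KO and 385 and 321 bases in Control. Rps15a, singled out after its values were seen, was the one core member whose groups separated in opposite directions on the 2 scales. It had 2970 and 2931 TPM in KO, below 3277 and 3663 TPM in Control, but 528 and 518 CPM in KO, above 498 and 505 CPM in Control. Its effective length was 250 and 246 bases in KO, against 209 and 189 bases in Control.

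The paralogs fell into 3 levels. Rpl3l, Rpl10l and Rpl39l, known from heart and skeletal muscle (Rpl3l) and from testis (the other two), were at or near 0. Rpl10l and Rpl39l had 0 counts in all 4 libraries, where a count of 0 allows up to 0.0880 and 0.0885 CPM in KO and 0.146 and 0.129 CPM in Control (3 counts of the total, counting error only). Rpl3l had 10 and 0 counts in KO and 0 and 8 counts in Control, or at most 0.60 TPM, beside 2683 to 3030 TPM of Rpl3. Rpl22l1, Rps27l and Rps27rt stood between 128 and 566 TPM, and Rpl36al above 1000.

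The coding sequences show how far Rpl39l and Rpl39 can be told apart by reads. They have 156 bases each and differ at 23, in capitals below, which leaves them 85.3% identical.
Rpl39l, chr16:10174310-10174465, plus strand, single exon: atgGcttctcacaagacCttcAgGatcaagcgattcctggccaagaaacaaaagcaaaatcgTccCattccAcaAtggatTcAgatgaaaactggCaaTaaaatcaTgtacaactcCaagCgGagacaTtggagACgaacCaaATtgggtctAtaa
Rpl39, chrX:37082701-37085127, minus strand, exons joined: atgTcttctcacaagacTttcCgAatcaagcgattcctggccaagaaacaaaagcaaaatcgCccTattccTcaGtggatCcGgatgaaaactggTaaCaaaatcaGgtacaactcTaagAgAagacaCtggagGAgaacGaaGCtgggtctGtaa
With 0 counts for Rpl39l, Rpl39 on the X chromosome had 1427 and 1275 TPM in KO and 1379 and 1316 TPM in Control, and the groups overlapped. The coding sequences of the other pairs were 74.96% identical for Rpl3l and Rpl3, 84.8% for Rpl10l and Rpl10, 70.0% for Rpl22l1 and Rpl22, 87.9% for Rpl36al and Rpl36a and 76.1% for Rps27l and Rps27. Rps27rt and Rps27 were identical over 255 coding bases, so reads from the coding part cannot be assigned to either of that pair.

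Rpl22l1 is the paralog of Rpl22, a protein needed for the development of T cells in the mouse. Rpl22l1 had 497 and 358 TPM in KO and 412 and 566 TPM in Control, so the replicates of each genotype differed widely and the groups overlapped. Its log2 fold change was -0.40 (SE 0.24, edgeR adjusted p = 0.623), the lowest of the 83, with a 95% interval from -0.95 to 0.16. It ran from -0.71 without Control replicate 1 to 0.01 without Control replicate 2. Rpl22 had 2388 and 2280 TPM in KO and 2166 and 2417 TPM in Control, with a log2 fold change of -0.09 (95% interval -0.29 to 0.12).

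Rpl36al on chromosome 12 is the autosomal copy of Rpl36a on the X chromosome. It had 1191 and 1183 TPM in KO and 1556 and 1284 TPM in Control. The KO pair lay below both Control libraries, and Control replicate 1 stood higher than Control replicate 2. The log2 fold change was -0.30 (SE 0.12, edgeR adjusted p = 0.445). With 1 library left out it ran from -0.43 to -0.15, the latter without Control replicate 1. Rpl36a had 3290 and 3368 TPM in KO and 3015 and 3228 TPM in Control, a log2 fold change of 0.05, so the values of the pair lay on opposite sides of 0, a difference that was not tested.

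Rps27l, a p53 target in human cells, was the member with the highest log2 fold change, 0.24 (SE 0.14, edgeR adjusted p = 0.617, 95% interval -0.09 to 0.57). It had 461 and 424 TPM in KO and 373 and 352 TPM in Control, without overlap. Rps27rt had 134 and 172 TPM in KO and 142 and 128 TPM in Control, with a log2 fold change of 0.12 and a wide interval, from -0.66 to 0.90. Rpl7l1, a factor of large subunit assembly, had 102 and 131 TPM in KO and 85.8 and 94.9 TPM in Control, and Rpl7 2429 and 2606 TPM in KO and 2313 and 2351 TPM in Control. Rps19bp1, which binds Rps19, had 46.4 and 74.4 TPM in KO and 79.9 and 53.6 TPM in Control. Replicates of each genotype lay further apart than the genotype means. Rpl10, the X-linked partner of Rpl10l and a late-joining large subunit protein, had 2530 and 2552 TPM in KO and 2412 and 2450 TPM in Control. Rps4x, an abundant X-linked member, had 3982 and 4091 TPM in KO and 3756 and 3893 TPM in Control, with a log2 fold change of 0.04.

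**Figure D4:**
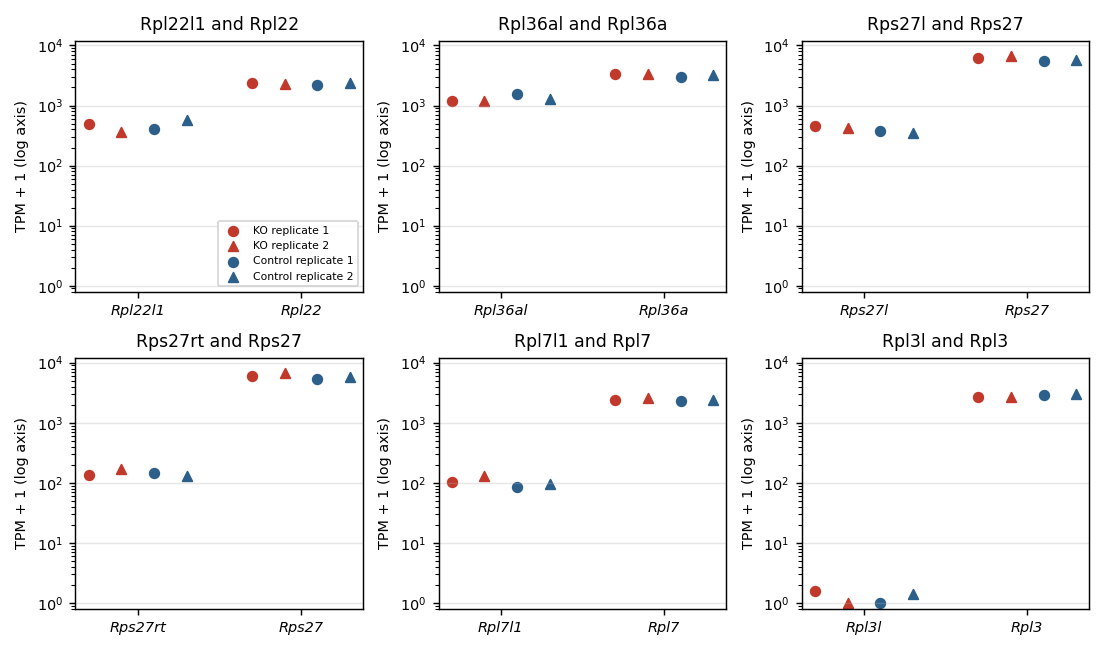
TPM + 1 (log axis) of 6 paralogs, retrogenes or related genes (left in each panel) and their partners (right) in each library, KO in red and Control in blue, replicates by symbol. Rpl3l lies at the bottom of its panel, at 0.60 TPM or less, beside 2683 to 3030 TPM of Rpl3.

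Reads of this family are shared with near-copies elsewhere in the genome. Outside the family, 332 gene models had at least 90% of the bases of every transcript covered by 21-base words found in 1 member. Of the 77 core members, 71 had 1 or more such models. Of these models 150 reached 1 TPM in a library and 18 reached 100 TPM. Together they held 0.876% and 0.907% of TPM in KO, against 0.864% and 0.881% in Control. Adding them to their members narrowed the spread of core levels, whose SD over genes fell to 0.55 on the log2 scale, against 0.61 alone, and left 2 in place of 6 core members at 1500 TPM or less. The genes named in this account of near-copies were chosen after their values were seen.

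Rpl5 and Rpl35 showed this most plainly. Gm15500 (chr7:114705217-114706235), identical to Rpl5 mRNA over 894 bases in 1 of its transcripts, had 1115 and 937 TPM in KO and 981 and 939 TPM in Control. It was above Rpl5 in KO replicate 1 and below it in the other 3 libraries. Gm2000 (chr1:156366040-156366484) differs from Rpl35 mRNA at 2 of 445 bases and had 1265 and 1323 TPM in KO and 1284 and 1259 TPM in Control, next to 1258 and 1313 TPM of Rpl35 in KO and 1222 and 1308 TPM in Control. Summed with such models, Rpl5 had a log2 fold change of -0.05 and Rpl35 one of -0.03.

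Near-copies of Rpl29, Rpl27 and Rpl3 are given because RSEM's values for Gm8210, Gm11518 and Rpl3-ps1 differed between genotypes. Each of these named copies reached 100 TPM in 1 genotype only, so how many such copies differ is not counted here. Gm8210, an intronless copy of Rpl29 at chr1:43189156-43189638, had 251 and 322 TPM in KO and 1.37 and 0 TPM in Control, a log2 fold change of 8.58 (edgeR adjusted p = 0.00340). Its 483 bases differ from Rpl29 mRNA at 3 coding positions, so a read inside the copy that covers none of them fits both. Gm13841 (chr5:115801677-115802159) is identical to Gm8210 over the 483 bases, and every read of one fits the other. The positions are shown in capitals within 21 bases, positions counted from 1 at the 5′ end of the Gm8210 transcript, with the substitutions C72A, C300T and T423C (Rpl29 base first).
Gm8210 site 1, chr1:43189217-43189237: tcaagaaaccAcggtcgcaaa
Rpl29 site 1, chr9:106430332-106430352: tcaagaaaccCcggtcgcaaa
Gm8210 site 2, chr1:43189445-43189465: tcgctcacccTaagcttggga
Rpl29 site 2, chr9:106431256-106431276: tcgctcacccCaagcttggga
Gm8210 site 3, chr1:43189568-43189588: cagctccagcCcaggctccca
Rpl29 site 3, chr9:106431379-106431399: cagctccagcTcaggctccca
RSEM's posterior mean for Gm8210 was 968 and 1162 counts in KO with posterior SDs of 414 and 395, and 4.45 and 1.17 counts in Control with SDs of 1.52 and 1.22. The posterior mean for Gm13841 was 729 and 606 counts in KO with SDs of 414 and 394, and 0.82 and 3.21 counts in Control. For Rpl29 itself the posterior SD was 16.2 and 16.3 counts in KO and 7.83 and 7.37 counts in Control, beside means of 19887 and 20285 in KO and 14387 and 16333 in Control. In KO the posterior SD was thus large for the 2 identical copies and small for Rpl29. It covers only how RSEM divided reads among the annotated models. Whether reads placed in the copies came from Rpl29 was not tested. Summed with its matching models, Rpl29 had 2142 and 2215 TPM in KO and 2202 and 2232 TPM in Control, and the log2 fold change was -0.14 (95% interval -0.32 to 0.05), against -0.26 for Rpl29 alone. The gap between genotypes thus narrowed once the copies were counted with it.

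Rpl27 has the near-copies Gm11518 and Rpl27-ps3, both identical to 411 bases of its mRNA. Gm11518 had 81.6 and 32.0 TPM in KO and 767 and 372 TPM in Control, a log2 fold change of -3.38 (edgeR adjusted p = 0.0319). Every read inside Gm11518 also fits Rpl27 mRNA. The call thus rests on how RSEM divided shared reads and cannot show a difference between genotypes. Rpl27-ps3 had 665 and 585 TPM in KO and 511 and 372 TPM in Control. RSEM's posterior SD for Gm11518 was 559 and 473 counts in KO and 494 and 444 counts in Control, beside posterior means of 990 and 1077 counts in KO and 1483 and 1041 counts in Control. These counts are not scaled for depth, and the expected counts, 308 and 120 in KO and 1834 and 966 in Control, lay further apart than the posterior means. Rpl27 alone had 1387 and 1420 TPM in KO and 1263 and 1471 TPM in Control, with a log2 fold change of -0.01 (95% interval -0.25 to 0.23) and posterior SDs of 86.7 and 85.1 counts in KO and 62.5 and 72.0 counts in Control. Summed with its matching models the log2 fold change was -0.14 (95% interval -0.33 to 0.06).

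Rpl3-ps1 differs from Rpl3 mRNA at 2 of 1210 bases. It had 125 and 136 TPM in KO and 38.7 and 47.4 TPM in Control, a log2 fold change of 1.56 (edgeR adjusted p = 0.0128) with posterior SDs of 15.4 to 38.4 counts. Rpl3 with its models had a log2 fold change of -0.14 (95% interval -0.30 to 0.02).

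**Figure D5:**
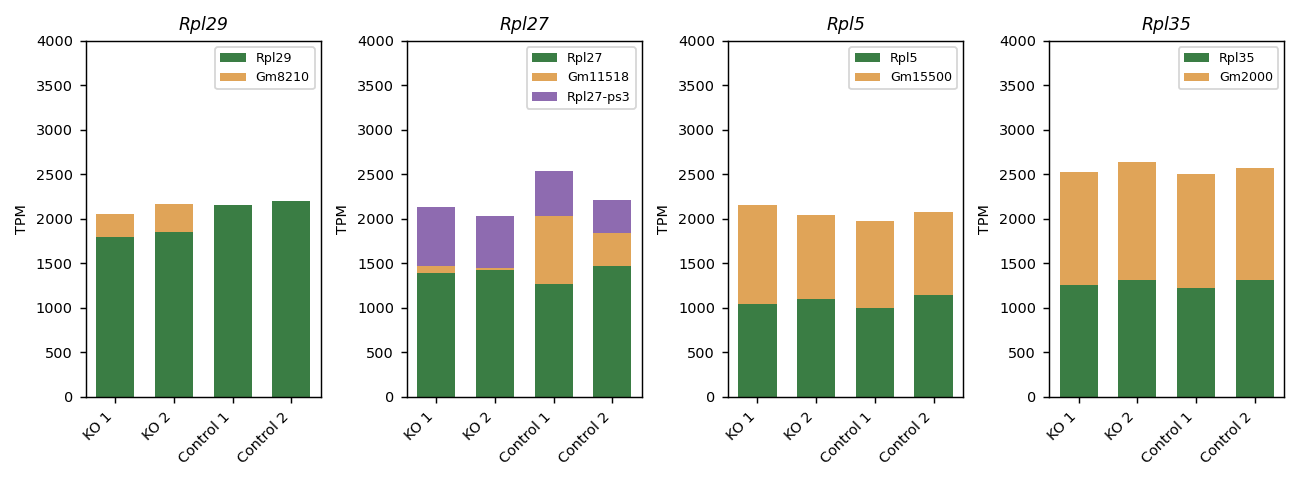
TPM of Rpl29, Rpl27, Rpl5 and Rpl35 (green) in each library with their largest near-copies stacked on top. Gm8210 is visible in the KO bars of Rpl29 only (251 and 322 TPM), while Gm15500 (937 to 1115 TPM) and Gm2000 (1259 to 1323 TPM) are tall in every library.

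Genes that make ribosomes or share the TOP motif gave similar counts of calls. For the lists below, the shares over all genes, higher and lower, were 0.451% and 0.212% in edgeR. At unadjusted p under 0.05 these shares were 5.81% and 4.61%, and in DESeq2 3.96% and 3.24%. Of 47 ribosome biogenesis factors 0 were called higher and 0 lower, with a median log2 fold change of -0.07, 14 values positive and 33 negative. At unadjusted p under 0.05, 0 were higher and 2 lower, and DESeq2 called 0 and 1 (Eif6), limma 0 and 0. Eif6, which keeps the subunits apart until the large one is mature, had 98.4 and 93.6 TPM in KO and 125 and 124 TPM in Control (log2 fold change -0.41, edgeR adjusted p = 0.303). Sbds, which helps to release Eif6 and is mutated in the human Shwachman-Diamond syndrome, had 69.9 and 74.6 TPM in KO and 82.7 and 74.2 TPM in Control (log2 fold change -0.37, edgeR adjusted p = 0.460). Nhp2, of the pseudouridylation complexes, had 190 and 205 TPM in KO and 275 and 203 TPM in Control, so only Control replicate 1 stood apart.

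Of 20 genes of RNA polymerase I and its factors, which transcribe ribosomal RNA, 0 were called in either direction. The median was -0.06, 0 were higher and 1 lower at unadjusted p under 0.05, and DESeq2 called 0 and 1 (Taf1c), limma 0 and 0. Taf1c, a subunit of the promoter selectivity factor, had 13.9 and 10.5 TPM in KO and 17.4 and 18.9 TPM in Control (log2 fold change -0.61, edgeR adjusted p = 0.426). Cd3eap and Polr1c, both polymerase subunits, had log2 fold changes of -0.48 and -0.29 with edgeR adjusted p of 0.508 and 0.592.

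Of 25 other genes with TOP mRNAs, which include Fau and Rack1, 0 were called in either direction, and the median was -0.02. At unadjusted p under 0.05, 1 was higher and 0 lower, and DESeq2 and limma called 0. Vim, the intermediate filament gene, was that one, with 481 and 561 TPM in KO and 424 and 442 TPM in Control (log2 fold change 0.24, edgeR adjusted p = 0.449). Eef1g, an elongation factor subunit, had a log2 fold change of -0.13, and Eif3e, an initiation factor subunit, one of 0.17. Fau had 1848 and 1844 TPM in KO and 1930 and 1925 TPM in Control, and Rack1 had 1788 and 1820 TPM in KO and 1761 and 1925 TPM in Control.

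The regulators of TOP mRNAs and the genes named as S6 kinases by symbol, after kinases that phosphorylate Rps6, numbered 27 tested genes. Here too 0 were called in either direction, with a median of 0.003, 2 higher and 1 lower at unadjusted p under 0.05, 1 higher (Rps6ka3) and 0 lower in DESeq2 and 0 in limma. Rps6ka3, a kinase of the RSK branch, had 55.4 and 43.3 TPM in KO and 44.96 and 43.5 TPM in Control (log2 fold change 0.28, edgeR adjusted p = 0.427). Larp4, a poly(A)-binding relative of Larp1, had 39.9 and 34.5 TPM in KO and 32.0 and 26.1 TPM in Control (log2 fold change 0.35, edgeR adjusted p = 0.436). Rps6kc1 had a log2 fold change of -0.63 (edgeR adjusted p = 0.472).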

How the data were processed

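RNA of the sorted cells was kept in RNAlater, extracted with an RNeasy kit and selected for polyadenylated RNA. Directional NEBNext Ultra II libraries were sequenced on a HiSeq instrument. STAR and RSEM on mm10 are credited to the submitters' processing notes. Their versions, the annotation and the strand setting are not given in the sources used. The authors deposited expected counts per gene, which RSEM estimates by dividing reads among gene models that they fit, so counts can move between near-copies. The deposited files also give TPM, effective length, and RSEM's posterior mean count and posterior SD.

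Symbols and positions came from GENCODE M21 (GRCm38), which named 55141 of 55401 gene models. Expected counts were rounded and tested with edgeR 4.0.16 in R 4.3.3 (TMM, filterByExpr at a minimum count of 10, robust quasi-likelihood fit with genotype only), which left 14635 genes. P-values were adjusted by Benjamini-Hochberg over all of them, tests were two-sided, and calls were made below an adjusted p of 0.05. Shares, CPM and TPM were computed per library. The SE is the log2 fold change divided by the square root of F. DESeq2 1.42.0, limma 3.58.1 on log2(TPM + 1) and log2(TPM + 0.1), other scalings, sums with near-copies, a replicate block and leaving out each library made up 15 alternatives. The limit given for a count of 0 covers counting error only. Nothing says that the libraries came from separate mice, and the p-values reflect only how these libraries vary, possibly for technical reasons. Near-copies were found from shared 21-base words and aligned with edlib. The members and lists were chosen with earlier results of these data known. Named members were the paralogs and their partners, the P stalk genes and Rpsa, the 4 with the smallest p in each direction, the 5 most and 3 least abundant tested, and Rps19, Rps14, Rpl5 and Rpl11. The values of 2 genes that these rules or lists include are not reported here. In each pathway list up to 3 genes with the smallest p were named.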

Additional observations from a re-analysis of the deposited data

How the results depend on the processing

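The count of members called lower was 0, 3 in DESeq2, and 0 to 1 when 1 library was left out (Rps14, without Control replicate 1). Members called higher stayed at 0 under all 15 alternatives. Over all genes, the counts higher and lower in KO (66 and 31) were 614 and 503 in DESeq2, 111 and 85 with no filter, 3 and 1 with an effective length offset, 5 and 0 in limma on log2(TPM + 1) and 0 and 0 on log2(TPM + 0.1). With 1 library left out they ran from 24 to 238 and from 18 to 144, lowest without KO replicate 1 and highest without a Control replicate. The family's median log2 fold change was -0.013 with the effective length offset, 0.0042 in limma with either pseudocount, and ran from -0.067 to -0.0040 with 1 library left out. The share of the family was 7.99% in KO and 8.22% in Control by counts, in place of TPM. With the replicate block, which shares only a number between samples (correlation of same-numbered deviations -0.0175), 0 members were called higher and 0 lower, and over all genes 62 and 36. The cause of these shifts was not tested.

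Of 435 log2 fold changes of the named members under alternatives, 38 had the other sign. With the effective length offset these were Rpl22 0.0079, Rpl23a 0.0070, Rplp2 0.126, Rps15 0.017 and Rpsa 0.028. In limma they were, with pseudocounts of 1 and 0.1, Rpl22 0.0284 and 0.0284, Rpl23a 0.0207 and 0.0207, Rpl37 0.00142 and 0.00142, Rpl39 0.00208 and 0.00208, Rpl5 0.00757 and 0.00758, Rplp2 0.143 and 0.143, Rps15 0.0340 and 0.0340, and Rpsa 0.0468 and 0.0468. Rpl37 was 0.0012 with no filter and 0.00048 with TMM factors set without the family. With 1 library left out, the ranges were -0.0029 to 0.0466 for Rpl10, -0.71 to 0.0090 for Rpl22l1, -0.122 to 0.0766 for Rpl23a, -0.060 to 0.062 for Rpl37, -0.112 to 0.033 for Rpl39, -0.0017 to 0.127 for Rpl7, -0.088 to 0.060 for Rplp2, -0.044 to 0.021 for Rps15, -0.63 to 0.065 for Rps19bp1, -0.072 to 0.295 for Rps27rt and -0.064 to 0.031 for Rpsa.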
